A study of Mus musculus with 6 samples.

Results

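Genes that sense nucleic acids or build inflammasomes were examined in BAT of wild-type and Letmd1 KO mice. The group holds 10 genes, taken by gene symbol from the 23282 rows that the count files of all 6 mice share, and each of the 10 was listed. They are the cytosolic DNA sensor Mb21d1 (cGAS) and its adaptor Tmem173 (STING), the endosomal receptors Tlr7 and Tlr9, the RNA sensing adaptor Mavs, and the inflammasome genes Nlrp3, Pycard (ASC), Casp1, Casp4 (caspase-11) and Il18. Of these, 8 had enough counts to be tested, and Tlr9 and Nlrp3 did not. RNA of the interscapular BAT depot came from 3 wild-type and 3 Letmd1 KO mice, all male C57BL/6N mice at 5 weeks of age. Letmd1 KO mice lack LETMD1 in every tissue. They go back to 1 ES cell clone with a lacZ and neomycin cassette in an intron of Letmd1, so that the loss is not limited to brown adipocytes. The 3 mice of a genotype are separate samples by their labels, and whether they shared a litter or a day is not given in the sources used here.

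Cells detect foreign or misplaced nucleic acids through several routes. cGAS binds DNA in the cytosol and makes a cyclic dinucleotide that activates STING, and the RNA helicases RIG-I and MDA5 signal through MAVS, an adaptor anchored in the outer membrane of mitochondria; both routes lead to the kinase TBK1, the factor IRF3 and type I interferon. TLR7 and TLR9 bind RNA and DNA inside endosomes and signal through MYD88. Inflammasomes are assemblies in which a sensor such as NLRP3 recruits ASC to activate caspase-1, which cuts pro-IL-18 and pro-IL-1β, while caspase-11 binds bacterial lipopolysaccharide in the cytosol. Mitochondria take part in these routes, as their DNA can be a ligand of cGAS, TLR9 and NLRP3 once it leaves the organelle. In adipose tissue, macrophages are a well-known site of inflammasome activity.

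Libraries held between 6669577 and 14574273 counts, and a gene without reads may still have had a level of up to 3 counts, which is 0.176 to 0.397 CPM depending on the mouse (CPM are read counts scaled to the size of the TMM-corrected library). This limit, the floor, covers counting error only. Letmd1 had between 5266 and 6490 counts in wild-type mice and at most 1 in Letmd1 KO mice, so the genotype labels matched the counts. The tissue label was checked by 7 markers listed for brown adipocytes (Adipoq, Plin1, Fabp4, Lipe, Cidec, Cidea and Ucp1), which summed to between 41781 and 47637 CPM in wild-type and between 13069 and 17614 CPM in Letmd1 KO mice, and all 7 were lower in Letmd1 KO BAT. Adipoq, Plin1, Fabp4, Lipe and Cidec are general adipocyte genes, so the sum does not tell brown from white fat. Ucp1 measured 6320 ± 518 CPM in wild-type and 382 ± 114 CPM in Letmd1 KO BAT (SD, n = 3 each). Cidea measured 4599 ± 138 and 1322 ± 367 CPM. In bulk tissue, fewer cells of a type and less RNA per cell cannot be told apart. Skeletal muscle markers summed to 6.35, 339 and 5.60 CPM in wild-type replicates 1, 2 and 3 and to 355, 263 and 1023 CPM in the Letmd1 KO replicates. TMM factors were 0.852 to 0.887 in wild-type and 1.13 to 1.17 in Letmd1 KO mice, and with library size as the sole scaling the median log2 fold change over the genes tested was 0.45 in place of 0.033.

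Letmd1 KO BAT had more RNA of 7 and less of 1 of the 8 members tested, the lower one being Mavs (edgeR's quasi-likelihood test, threshold 0.05 on the Benjamini-Hochberg adjusted p). Among all 12995 genes tested, 23.7% were higher and 22.3% lower, 46.0% in either direction. With library size alone, 5891 genes were higher and 1371 lower in place of 3082 and 2897, while the members remained at 7 higher and 1 lower. As a median, the log2 fold change of the 8 members was 2.55, beside 0.033 over all genes tested. In CPM the genotypes did not overlap for any of these 8 members, nor for 57.3% of all genes tested. Members that passed the filter on low counts include some that passed it through the Letmd1 KO mice alone, so these counts describe the 8 and not all 10.

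**Figure D1:**
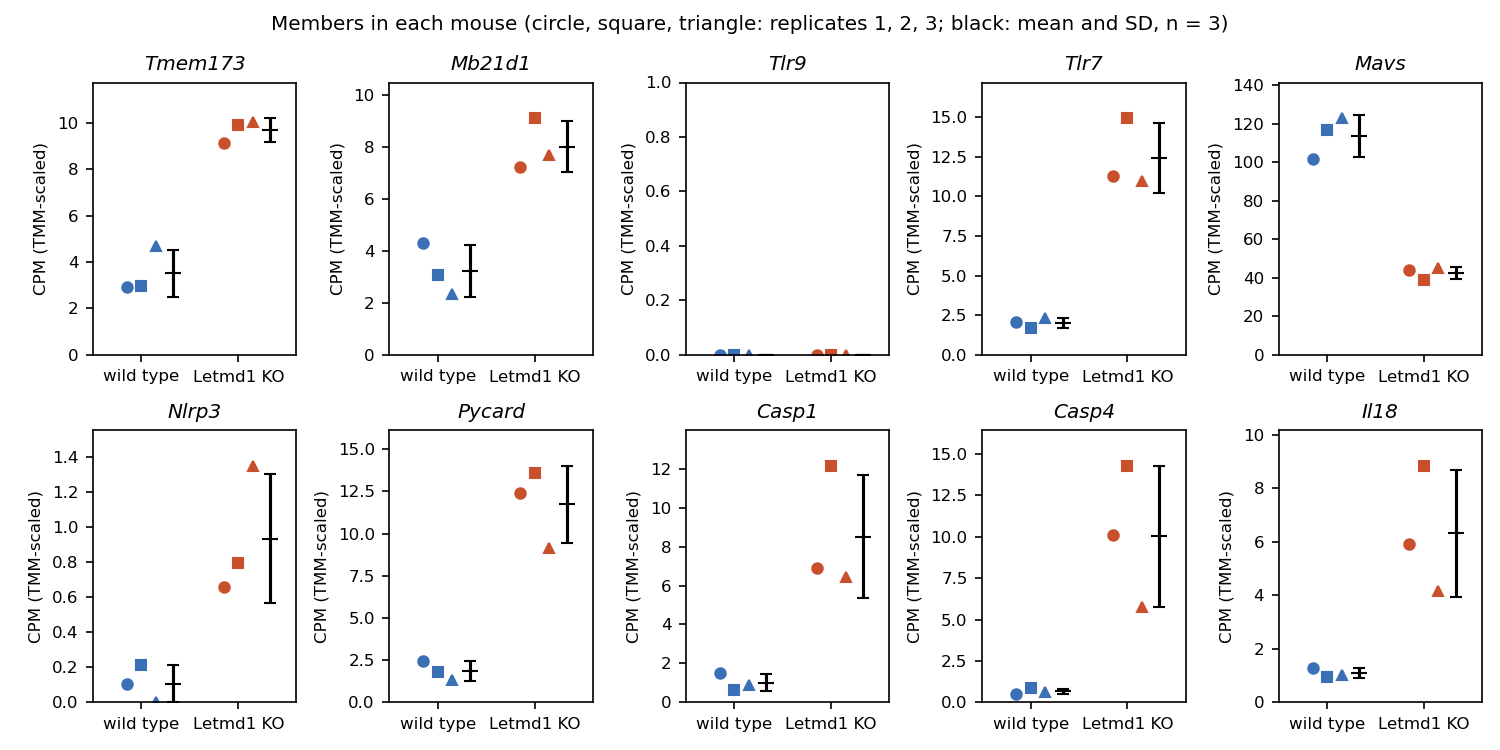
Each panel plots the TMM-scaled CPM of a member in 3 wild-type (blue) and 3 Letmd1 KO (red) mice, with replicates 1, 2 and 3 as circle, square and triangle and the mean and SD in black. The genotypes separate in every panel except that of Tlr9, which had no counts, and Mavs is the member with lower values in Letmd1 KO mice.

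Both genes of the cytosolic DNA sensing pair rose. Tmem173, which encodes STING, measured 2.91, 2.96 and 4.69 CPM in the wild-type mice and 9.11, 9.91 and 10.04 CPM in the Letmd1 KO mice. All 3 Letmd1 KO mice lay above the highest wild-type mouse, by at least 1.94-fold. The mean was 3.52 ± 1.01 CPM in wild-type and 9.69 ± 0.506 CPM in Letmd1 KO BAT (SD, n = 3 each), which is 1.47 as a log2 fold change (adjusted p = 0.00166 by edgeR, standard error 0.26). Mb21d1, which encodes the sensor cGAS, measured 4.31, 3.07 and 2.34 CPM in wild-type and 7.24, 9.12 and 7.69 CPM in Letmd1 KO mice. Its genotypes did not overlap either, and its log2 fold change of 1.29 (adjusted p = 0.0056, standard error 0.29) was the smallest among the members that rose. When wild-type replicate 2 and Letmd1 KO replicate 3, the mouse of each genotype with the most skeletal muscle marker counts, were both left out, Mb21d1 no longer passed the threshold (log2 fold change 1.27, adjusted p = 0.0563 from edgeR). The ratio of Tmem173 to Mb21d1 counts was 0.675, 0.966 and 2.0 in wild-type and 1.26, 1.09 and 1.31 in Letmd1 KO mice, so that the wild-type mice spanned the Letmd1 KO values. Mb21d1 lies on chromosome 9 (78430526 to 78443237, minus strand, GRCm38), where the processed pseudogene Gm8093 overlaps its exons on the opposite strand.

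Of the endosomal receptors, Tlr7 rose and Tlr9 was not detected. Tlr7, a receptor for single-stranded RNA on the X chromosome (167304929 to 167330558, minus strand), measured 2.05, 1.69 and 2.34 CPM in wild-type and 11.3, 14.9 and 10.98 CPM in Letmd1 KO mice. Even the lowest Letmd1 KO mouse lay 4.69-fold above the highest wild-type mouse. The log2 fold change of Tlr7 was 2.61 (standard error 0.26, adjusted p = 6.29e-05 from edgeR). Tlr9, the receptor for unmethylated CpG DNA (chromosome 9, 106222598 to 106226883, plus strand), had 0 counts in all 6 mice. At these depths a level of up to 0.176 to 0.397 CPM per mouse would have been missed, so a difference between the genotypes was not detectable. Plasmacytoid dendritic cells and B cells are known to carry both receptors in mice; the 4 plasmacytoid dendritic cell markers summed to 4.66 to 7.81 CPM in wild-type and 4.61 to 7.14 CPM in Letmd1 KO mice. The 5 B cell markers summed to 0.431 to 2.01 and 1.06 to 2.78 CPM, and none of them had enough counts to be tested.

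Mavs moved against the other members tested. It encodes the mitochondrial adaptor of RIG-I and MDA5 and lies on chromosome 2 (131234063 to 131248025, plus strand). Its level was 101, 117 and 123 CPM in wild-type and 43.9, 39.0 and 45.1 CPM in Letmd1 KO mice. The lowest wild-type mouse stood 2.25-fold above the highest Letmd1 KO mouse, and both genotypes were tight (114 ± 11.1 and 42.6 ± 3.22 CPM, SD, n = 3 each). Mavs fell by 1.41 on the log2 scale (standard error 0.12, adjusted p = 2.53e-05 from edgeR). It fell under each of the 14 alternatives in scaling, filter, tool and left-out mice, by between 0.99 and 1.49. The markers of the tissue check had log2 fold changes from -0.50 (Lipe) to -4.05 (Ucp1), with a median of -1.42. The part of brown adipocyte RNA in the fall of Mavs was not tested. Because Mavs fell while Tmem173 rose, the ratio of Mavs to Tmem173 counts went from 34.9, 39.3 and 26.2 in wild-type to 4.82, 3.93 and 4.49 in Letmd1 KO mice.

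Casp4 and Casp1 had the largest log2 fold changes of the 8 members tested. Casp4, the caspase that binds lipopolysaccharide, measured 0.538, 0.847 and 0.651 CPM in wild-type and 10.1, 14.3 and 5.76 CPM in Letmd1 KO mice. Its wild-type values rest on 5 to 8 counts per mouse, while the Letmd1 KO mice had 92 to 108. The lowest Letmd1 KO mouse was 6.8-fold above the highest wild-type mouse, and the log2 fold change was 3.84 (standard error 0.44, adjusted p = 0.000142 from edgeR). Casp1, the caspase that matures IL-18 and IL-1β, measured 1.51, 0.635 and 0.912 CPM in wild-type and 6.91, 12.2 and 6.46 CPM in Letmd1 KO mice. Its log2 fold change was 3.03 (standard error 0.42, adjusted p = 0.000399), with no overlap between the genotypes. The ratio of Casp4 to Casp1 counts was 0.357, 1.33 and 0.714 in wild-type and 1.46, 1.17 and 0.891 in Letmd1 KO mice, which overlap.

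Casp1 (5298517 to 5307265) and Casp4 (5308828 to 5336783) are neighbours on the plus strand of chromosome 9, 1562 bases apart, and Casp12 (5345430 to 5373032) follows 8646 bases further with no other annotated gene between. Casp12, a caspase linked to the endoplasmic reticulum and inflammatory signalling, is not among the 10 genes but rose with its neighbours, from 2.37 ± 0.844 to 32.5 ± 1.47 CPM (SD, n = 3 each; log2 fold change 3.78, adjusted p = 8.3e-06 from edgeR). All 3 caspase genes of this cluster were higher in each Letmd1 KO mouse than in any wild-type mouse. Among all genes tested, the genotypes did not overlap in CPM for 57.3%, in either direction.

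Pycard and Il18 rose as well, while Nlrp3 had too few counts for the test. Pycard encodes ASC, the adaptor that joins sensor and caspase, and lies on chromosome 7 (127989708 to 127993867, minus strand). It measured 2.48, 1.80 and 1.30 CPM in wild-type and 12.4, 13.6 and 9.16 CPM in Letmd1 KO mice, which do not overlap. Its log2 fold change was 2.63 (standard error 0.31, adjusted p = 0.000146 from edgeR). The annotation places the unclassified gene Gm45205 over exons of Pycard on the opposite strand, and whether reads were counted by strand is not given in the sources used here.

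Il18, whose product is a substrate of caspase-1, lies on chromosome 9 (50554827 to 50581840, plus strand). Its level was 1.29, 0.953 and 1.04 CPM in wild-type and 5.93, 8.86 and 4.17 CPM in Letmd1 KO mice. Again the genotypes were apart, and the log2 fold change was 2.49 (standard error 0.40, adjusted p = 0.00088). Bco2 and Tex12 overlap Il18 on the opposite strand without sharing exons, and had at most 6 counts in any mouse. Nlrp3 (chromosome 11, 59541568 to 59566956, plus strand), the sensor of the canonical inflammasome, had 1, 2 and 0 counts in wild-type and 6, 6 and 23 counts in Letmd1 KO mice. All wild-type mice were under the floor of 3 counts, and the Letmd1 KO mean of Nlrp3 was 2.72-fold above the mean floor of the wild-type libraries. This ratio is not a strict lower bound, as the floor is set for a gene without reads and the Letmd1 KO counts carry counting error too. The genotypes did not overlap (two-sided exact permutation test, p = 0.1, the smallest p that 3 mice against 3 allow). Nlrp3 was left out of the edgeR test by the filter on low counts and passed the threshold when no filter was used (log2 fold change 2.96, adjusted p = 0.0284).

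In levels, Mavs stood far above the other members in both genotypes. CPM of 3′ end libraries such as QuantSeq does not scale with transcript length, although the capture of 3′ ends can differ between genes. In wild-type BAT the order of mean CPM was Mavs, Tmem173 (3.52), Mb21d1 (3.24), Tlr7 (2.03), Pycard (1.86), Il18 (1.10), Casp1 (1.02), Casp4 (0.679) and Nlrp3. The values of neighbours overlapped or touched, apart from Mavs and Tmem173, Pycard and Il18, and Casp4 and Nlrp3. In Letmd1 KO BAT the order after Mavs was Tlr7 (12.4), Pycard (11.7), Casp4 (10.04), Tmem173 (9.69), Casp1 (8.51), Mb21d1 (8.02) and Il18 (6.32), and every neighbouring pair of these 7 overlapped. Among the Letmd1 KO mice, replicate 2 was the highest for 6 of the 7 members that rose, and replicate 3 the lowest for 5 of 7. Replicate 2 also had the highest summed level of macrophage markers, 1876 CPM against 1125 and 1196 CPM in replicates 1 and 3.

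The RefSeq promoters (GRCm38.p6, 250 bases before to 50 bases after a start) of 8 members, 10 sequences in all, were searched on both strands for the letters of the interferon-stimulated response element (GAAANNGAAA), the gamma-activated sequence (TTCNNNGAA), PU.1 (GAGGAAGT), NF-kB (GGGANNTTCC) and an ETS-IRF composite (GGAANNGAAA). These 8 differ from the 8 tested members. They include Tlr9 and Nlrp3, while the promoters of Tmem173 and Tlr7 were not searched. PU.1 is a transcription factor of myeloid cells. The promoters shown are those of the member that rose most, of the member that fell, and of the member that rose and held a match, with matching bases in capitals. Each is written 5′ to 3′ on the strand of its gene, from chr9:5308599-5308898 (plus), chr2:131233813-131234112 (plus) and chr7:127993818-127994117 (minus).

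Casp4: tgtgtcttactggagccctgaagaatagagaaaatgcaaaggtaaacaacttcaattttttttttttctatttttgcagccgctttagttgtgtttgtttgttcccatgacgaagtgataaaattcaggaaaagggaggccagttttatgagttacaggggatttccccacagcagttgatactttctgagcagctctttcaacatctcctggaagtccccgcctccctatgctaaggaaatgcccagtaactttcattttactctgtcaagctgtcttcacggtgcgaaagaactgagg

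Mavs: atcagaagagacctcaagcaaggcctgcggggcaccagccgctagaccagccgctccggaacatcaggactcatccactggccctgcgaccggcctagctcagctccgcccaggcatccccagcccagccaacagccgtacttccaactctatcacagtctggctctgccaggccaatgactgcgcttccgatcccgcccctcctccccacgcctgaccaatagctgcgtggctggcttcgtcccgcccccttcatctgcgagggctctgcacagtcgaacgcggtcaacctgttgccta

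Pycard: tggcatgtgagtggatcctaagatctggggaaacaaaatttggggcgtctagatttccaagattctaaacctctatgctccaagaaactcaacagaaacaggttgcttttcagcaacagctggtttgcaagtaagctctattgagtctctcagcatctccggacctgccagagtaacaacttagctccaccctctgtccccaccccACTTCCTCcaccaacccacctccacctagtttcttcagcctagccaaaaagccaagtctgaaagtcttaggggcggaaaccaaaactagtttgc

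The PU.1 letters occurred in the promoters of Pycard, at bases -44 to -37 with the start as 0 and on the opposite strand, and of Tlr9, and in 3.2% of 32851 promoters of the same length. The letters of the other motifs were found in none of the 10 sequences. Among all promoters they occurred in 3.44% for the interferon-stimulated response element, 8.3% for the gamma-activated sequence, 1.47% for NF-kB and 2.72% for the composite. The gamma-activated, NF-kB and response element letters do not contain one another, whereas a composite can share bases with PU.1 or with a response element. A match is a description of the letters, and the lack of one says only that these letters are not in this window. Other forms of the motifs were not searched. The printed Casp4 promoter, for instance, holds gggatttccc, which resembles the NF-kB letters without matching them.

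The pathways around the members were described with 6 lists of partner genes, whose counts are to be read beside the 23.7% higher and 22.3% lower among all genes tested. DNA sensing partners had 13 of 25 tested genes higher and 2 lower, with a median log2 fold change of 0.77. Zbp1, a sensor of Z-form nucleic acids, changed most, from 0.762 ± 0.46 to 8.18 ± 2.0 CPM (SD, n = 3 each; log2 fold change 3.35). The kinase Ikbke rose by a log2 fold change of 2.55 and Ifi204, a DNA-binding protein of the interferon-inducible p200 family, by 2.47. Ifi204 belongs to a cluster of similar genes, between which multiple alignments could be split. The core kinase and factor below STING and MAVS did not pass the threshold: Tbk1 measured 19.1 ± 1.88 and 18.1 ± 2.79 CPM and Irf3 29.6 ± 0.8 and 31.7 ± 1.21 CPM in wild-type and Letmd1 KO BAT (SD, n = 3 each). With library size alone, Irf3 passed it with a log2 fold change of 0.52, and Tbk1 turned from -0.071 to 0.35 without passing it. The 2 lower genes, named after their values were seen, were Slc19a1, a folate carrier that also imports cyclic dinucleotides (log2 fold change -1.27), and Rnaseh2c, a subunit of ribonuclease H2 (-0.79), whose call was lost with library size alone (-0.37).

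RNA sensing partners had 12 of 17 tested genes higher and 1 lower, with a median log2 fold change of 1.08. The helicases upstream of Mavs rose while Mavs fell. Ddx58, which encodes RIG-I, went from 24.6 ± 4.86 to 48.1 ± 3.58 CPM (SD, n = 3 each; log2 fold change 0.97, adjusted p = 0.00109 from edgeR), and Ifih1, which encodes MDA5, from 7.74 ± 1.97 to 16.4 ± 3.48 CPM (log2 fold change 1.08, adjusted p = 0.00579). The 2′-5′-oligoadenylate synthetase family gave the largest changes of this list, with log2 fold changes of 3.46 for Oas1a, 2.98 for Oasl1 and 2.71 for Oas3. Oas1a has close copies in its cluster, so that its value is uncertain where reads align to several of them. Pcbp2, an RNA-binding protein that targets MAVS for degradation, had a log2 fold change of -0.33 but was above 0 under quantile normalization (0.029) and with library size alone (0.088). The call of Pcbp2 was lost without wild-type replicate 1 or 2, Letmd1 KO replicate 1 or 3, or the 2 muscle-rich mice (adjusted p = 0.0578, 0.0645, 0.0682, 0.0543 and 0.144 from edgeR).

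Endosomal TLR partners had 13 of 20 tested genes higher and 1 lower, with a median log2 fold change of 0.80. Unc93b1, the chaperone that carries TLR7 and TLR9 to endosomes, rose from 22.8 ± 3.36 to 74.4 ± 17.6 CPM (SD, n = 3 each; log2 fold change 1.71, adjusted p = 0.00011 from edgeR). Of the 4 listed cathepsins, proteases of the endosome that process these receptors, Ctss, Ctsk and Ctsl rose, with log2 fold changes of 4.03, 3.72 and 1.70. Ctsb, the most abundant of the 4, measured 1099.6 ± 102 CPM in wild-type and 692 ± 339 CPM in Letmd1 KO BAT (SD, n = 3 each; log2 fold change -0.67) and did not pass the threshold. Ctsl and Ctsb were chosen after their values were seen. Tlr13, a receptor for bacterial ribosomal RNA, had a log2 fold change of 3.98. Letmd1 KO replicate 2 stood above replicates 1 and 3 for Ctss (510 CPM against 195 and 164), Ctsk (149 against 28.2 and 21.97) and Ctsl (778 against 347 and 376). Without it the log2 fold change was 3.34 for Ctss and 2.33 for Ctsk, both still past the threshold. The adaptor Myd88 did not pass the threshold, at 30.9 ± 4.6 and 32.7 ± 4.11 CPM in wild-type and Letmd1 KO BAT (SD, n = 3 each), though it did with library size alone (log2 fold change 0.49). Irak1, a kinase below MYD88, was lower with a log2 fold change of -0.34, which was 0.080 with library size alone, and its call was also lost under quantile normalization (-0.15) and without the 2 muscle-rich mice (-0.37).

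Inflammasome partners had 16 of 23 tested genes higher and 1 lower, with a median log2 fold change of 1.56. Under quantile normalization 9 were higher and 1 lower, and without the 2 muscle-rich mice 8 were higher. Il1rn, the antagonist of the IL-1 receptor, changed most and had 15, 3 and 2 counts in wild-type and 253, 79 and 119 in Letmd1 KO mice (log2 fold change 4.29, adjusted p = 0.00113 from edgeR). This value moved to 5.62 without wild-type replicate 1 and to 3.51 without Letmd1 KO replicate 1, and passed the threshold in both. Naip2, a sensor of bacterial secretion proteins in a cluster of similar genes, rose by a log2 fold change of 2.31. The DNA sensor Aim2 had 13, 7 and 1 counts in wild-type and 15, 50 and 45 in Letmd1 KO mice, and its log2 fold change of 2.17 (adjusted p = 0.0329) lost its call under quantile normalization and without wild-type replicate 2 (adjusted p = 0.0872), wild-type replicate 3 (0.0688) or Letmd1 KO replicate 2 (0.123), and without the 2 muscle-rich mice (0.11). The log2 fold change of Aim2 was 2.92 without wild-type replicate 1 and 1.47 without Letmd1 KO replicate 2. Gsdmd, which encodes the pore protein that both caspases cleave, rose from 3.95 ± 0.432 to 7.5 ± 0.288 CPM (SD, n = 3 each; log2 fold change 0.92), a call lost under quantile normalization (adjusted p = 0.104 from limma) and without the 2 muscle-rich mice (adjusted p = 0.0635).

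Il1b had 1, 1 and 5 counts in wild-type and 13, 6 and 43 in Letmd1 KO mice, and it was left out of the test by the filter on low counts. With no filter its log2 fold change was 2.53 (adjusted p = 0.0256 from edgeR). With the filter, Il1b also entered the test when some of the mice were left out. It passed without wild-type replicate 3 and without Letmd1 KO replicate 2 (log2 fold changes 3.8 and 2.84, adjusted p = 0.00877 and 0.0181 from edgeR), but not without wild-type replicate 1 (0.0748) and not without wild-type replicate 2 (0.0809). Il18bp, the decoy that binds IL-18, was the list's lower gene, with 75, 85 and 77 counts in wild-type and 16, 48 and 56 in Letmd1 KO mice. Its log2 fold change was -1.28 (adjusted p = 0.0254), and the call was lost with library size alone (-0.86) and without wild-type replicate 2 (-1.30), wild-type replicate 3 (-1.21), Letmd1 KO replicate 1 (-0.95) or Letmd1 KO replicate 3 (-1.18), and without the 2 muscle-rich mice (-1.19). Nek7, the kinase that NLRP3 needs, was measured at 31.7 ± 1.87 and 30.2 ± 4.24 CPM in wild-type and Letmd1 KO BAT (SD, n = 3 each) and did not pass the threshold.

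Interferon axis genes had 12 of 17 tested genes higher and 1 lower, with a median log2 fold change of 1.27. Ifnb1, the type I interferon that these sensors induce, had 0 counts in all 6 mice, as had Ifna2, Ifna4 and Ifne, while Ifnk and Ifng had 1 count each. Irf7, the factor that amplifies type I interferon, rose from 10.8 ± 2.16 to 38.5 ± 6.38 CPM (SD, n = 3 each; log2 fold change 1.82, adjusted p = 8.35e-05 from edgeR). Mx1, an antiviral GTPase, had 0, 8 and 4 counts in wild-type and 75, 84 and 59 in Letmd1 KO mice (log2 fold change 4.0). With so few wild-type counts, the value of Mx1 was 3.39 without wild-type replicate 1, 4.87 without wild-type replicate 2 and 5.23 without the 2 muscle-rich mice, each past the threshold. The chemokine Cxcl10 and the ubiquitin-like modifier Isg15 rose by 2.48 and 2.38 on the log2 scale. The receptor chain Ifnar2 was the lower gene, at 202 ± 30.2 CPM in wild-type and 87.8 ± 12.6 CPM in Letmd1 KO BAT (SD, n = 3 each; log2 fold change -1.20, adjusted p = 0.000192), and it stayed lower with library size alone (-0.78). NF-kB axis genes had 5 of 13 tested genes higher and 1 lower, with a median log2 fold change of 0.36, and these 6 calls of 13 are close to the 46.0% called among all genes. With library size alone 10 were higher and 0 lower. Without wild-type replicate 1 the counts were 3 and 0, and without wild-type replicate 2 they were 2 and 1. Without the 2 muscle-rich mice, 1 was higher and 1 lower. Nfkb2, Nfkbie and Tnfaip3 had log2 fold changes of 0.92, 1.32 and 1.52. The call of Tnfaip3, an inhibitor of NF-kB signalling, was lost with the replicate number as a block, under quantile normalization and without wild-type replicate 1, wild-type replicate 2 or Letmd1 KO replicate 2 (log2 fold change 0.80), and that of Nfkbie under quantile normalization. Both were lost without the 2 muscle-rich mice (adjusted p = 0.0829 and 0.0792 from edgeR). Nfkbia, which encodes the inhibitor IκBα, was lower with a log2 fold change of -0.84, a call lost with library size alone (-0.43), under quantile normalization (-0.52) and without wild-type replicate 1 (-0.70).

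**Figure D2:**
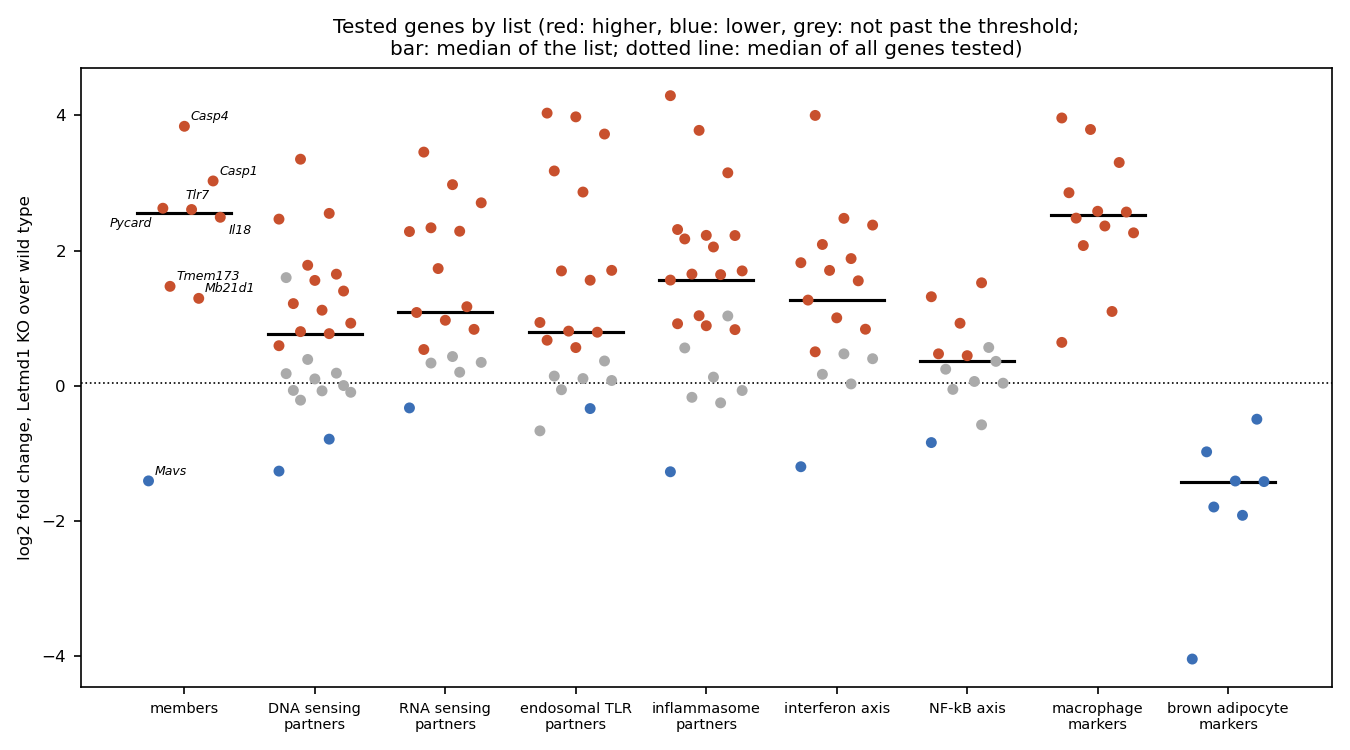
The vertical axis gives the log2 fold change of each tested gene, Letmd1 KO over wild type, for the members, 6 lists of partner genes and 2 lists of cell type markers, with calls in red (higher) or blue (lower), other genes in grey, a bar at the median of the list and a dotted line at the median of all genes tested. The medians of the members (2.55) and of the macrophage markers (2.52) are close, while single members range from Mavs at -1.41 to Casp4 at 3.84.

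Of the macrophage markers, 12 rose and Mertk was lower in mean level. Of 13 markers, 12 could be tested and all 12 were higher, with a median log2 fold change of 2.52. Mertk, with 12, 5 and 6 counts in wild-type and 2, 5 and 5 in Letmd1 KO mice, was not tested, and its mean was 0.868 CPM in wild-type and 0.391 CPM in Letmd1 KO BAT, with overlap. They summed to between 192 and 267 CPM in wild-type and between 1125 and 1876 CPM in Letmd1 KO mice. No macrophage marker was at 0 in every mouse. Of the other lists, 1 of 2 tested T cell markers was higher (Cd4), 1 of 3 plasmacytoid dendritic cell markers was higher (Pacsin1), 2 of 10 skeletal muscle markers were higher (Myh1 and Myh2) and 3 of 7 endothelial markers were lower (Cdh5, Kdr and Tek). T cell markers summed to 2.26 to 5.6 CPM in wild-type and 3.29 to 8.86 CPM in Letmd1 KO mice, and neutrophil markers to 1.59 to 47.5 and 1.82 to 40.3 CPM, both with overlap. The part of macrophage RNA in the rise of the members was not tested.

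To place the members beside these markers, the mean log2 CPM of the 13 macrophage markers was subtracted from the log2 CPM of each member in the same mouse. The marker mean itself was 3.51, 3.16 and 3.52 in wild-type and 5.33, 6.05 and 5.40 in Letmd1 KO mice, a difference of 2.19. Relative to it, Pycard differed by 0.36 between Letmd1 KO and wild-type mice and Il18 by 0.082, and the genotypes overlapped for both. Casp4 lay 1.27 higher, Casp1 0.65 higher and Tlr7 0.30 higher in Letmd1 KO mice, without overlap. Tmem173 lay lower, with a difference of -0.75, and Mb21d1 with a difference of -0.90, also without overlap. Mavs changed from 3.15, 3.71 and 3.42 above the marker mean in wild-type mice to 0.13, -0.76 and 0.10 in Letmd1 KO mice. Leaving Mertk out of the marker mean lowered every member's difference by the same amount. With the 12 tested markers alone, an alternative chosen after seeing the data, Tlr7 differed by 0.049, Pycard by 0.11, Casp1 by 0.39 and Il18 by -0.17, all with overlap, while Casp4 (1.02), Tmem173 (-1.01), Mb21d1 (-1.16) and Mavs (-3.86) remained without overlap. These differences are given as a description on the log2 scale, with no test.

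**Figure D3:**
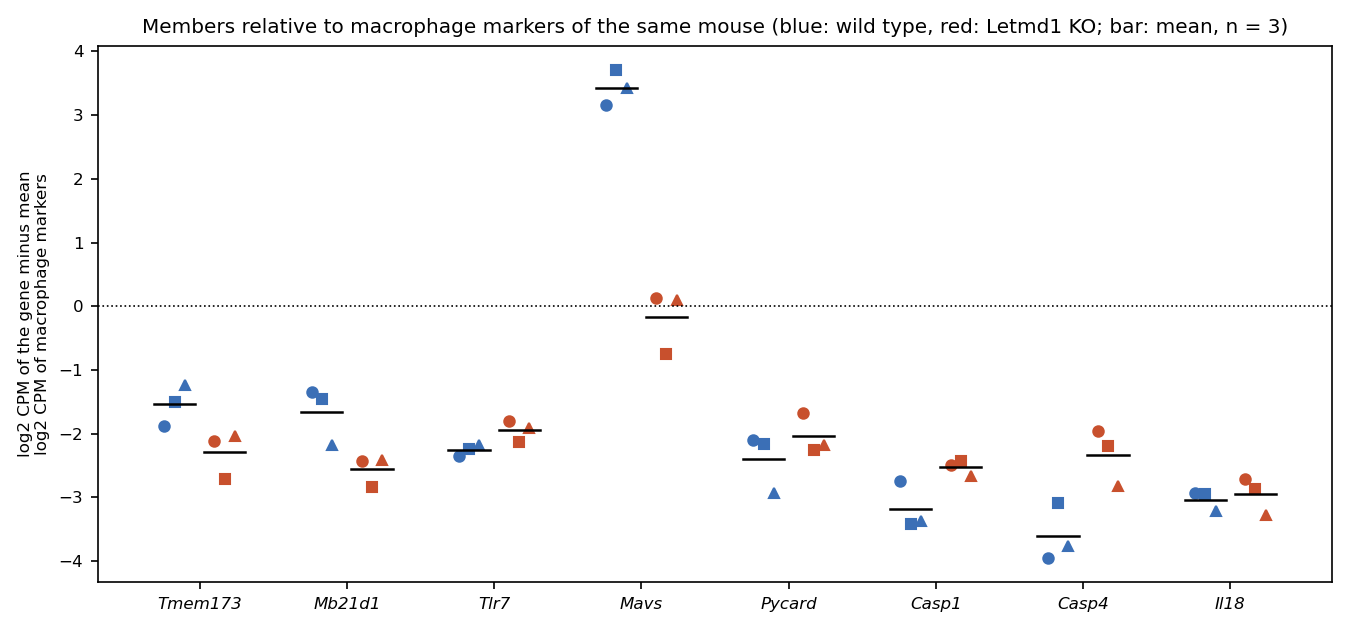
The vertical axis gives the log2 CPM of each tested member minus the mean log2 CPM of 13 macrophage markers in the same mouse, with 3 wild-type mice in blue, 3 Letmd1 KO mice in red, replicates as circle, square and triangle, and bars at the mean. Tlr7, Casp1 and Casp4 sit higher in Letmd1 KO mice, Tmem173, Mb21d1 and Mavs lower, and Il18 and Pycard overlap, as do Tlr7 and Casp1 once Mertk is left out of the markers.

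The direction of each tested member was the same under every alternative run, 14 for each member but Casp1 and Il18, which a minimum mean of 50 counts leaves out. The log2 fold change ranged from 1.06 to 1.89 for Tmem173, from 0.87 to 1.71 for Mb21d1, from 2.10 to 3.02 for Tlr7, from 2.12 to 3.04 for Pycard, from 2.32 to 3.44 for Casp1, from 2.89 to 4.32 for Casp4 and from 1.75 to 2.90 for Il18. The limma fit with quantile normalization gave the lowest value for each of the 7 members that rose, and library size alone the highest except for Casp4. The adjusted p over these alternatives was at most 0.0323 for Tmem173, 0.00186 for Tlr7, 0.00119 for Mavs, 0.00232 for Pycard, 0.00427 for Casp1, 0.00122 for Casp4 and 0.00557 for Il18, and Mb21d1 reached 0.0563 in the fit without the 2 muscle-rich mice.

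**Figure D4:**
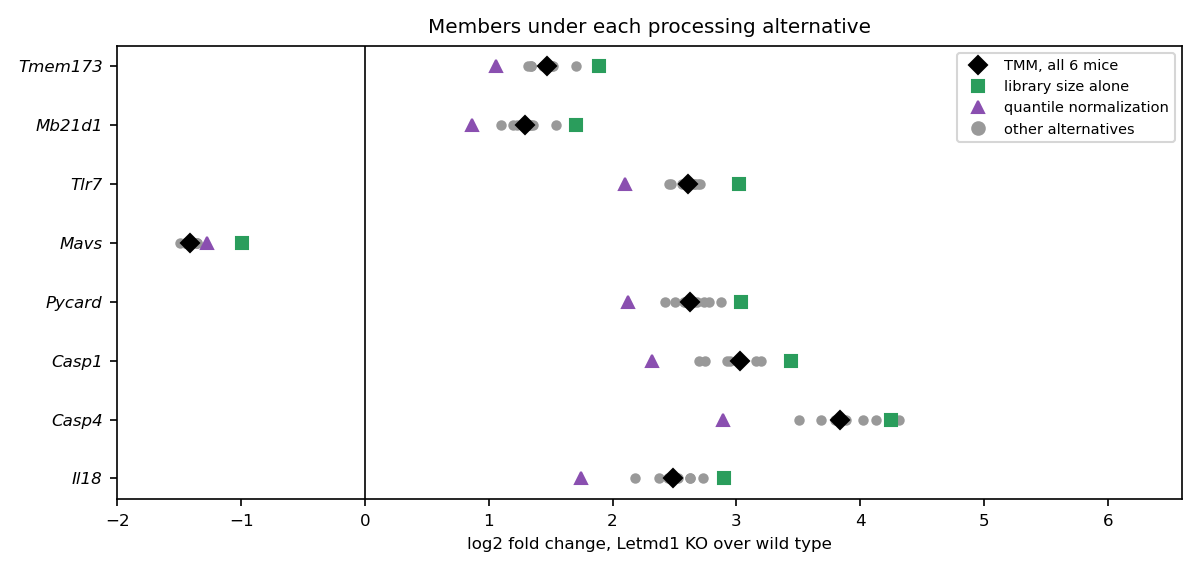
The horizontal axis gives the log2 fold change of each tested member, Letmd1 KO over wild type, with TMM scaling on all 6 mice (black diamonds), library size alone (green squares), quantile normalization (purple triangles) and the other alternatives (grey circles). No member crosses 0, and Mavs stays to the left of it.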

How the data were processed

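BAT of 3 wild-type and 3 Letmd1 KO mice was sequenced with QuantSeq. The authors used Bowtie2 for alignment and Bedtools for counting, kept reads with several alignments as well as unique ones, and deposited raw counts per gene for each mouse (build mm10 in the submitters' processing notes); versions, annotation and strand are not given in the sources used here. Files were matched to mice by their records, and groups were taken from the sample titles.

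The test was edgeR 4.0.16 under R 4.3.3 (TMM scaling, default filter: minimum count 10, minimum total 15, quasi-likelihood test, Benjamini-Hochberg adjustment over 12995 genes, threshold 0.05). Standard errors are the log2 fold change over the root of the F statistic. Log2 CPM used a prior count of 2. Alternatives used limma 3.58.1, on quantile-normalized log2 CPM with this prior count, and DESeq2 1.42.0. Members and lists were chosen with earlier results of these data known. Named genes are the members, 12 partners fixed by role, up to 3 further genes of each list with the largest change among calls whose genotypes did not overlap and whose mean count reached 20, and the lower genes of each list, named after their values were seen. Ctsl and Ctsb, described after their values were seen, are not counted among the named genes. Symbols on more than 1 row (35) were tested by row. The fits were tested on simulated data. Gene positions came from GENCODE vM21 on GRCm38, the same build as mm10. No 2 mice of a genotype agreed within counting error (chi-square over its degrees of freedom from 11.5 to 34.0). Floors cover counting error only. Standard errors and p-values from edgeR set a genotype difference against the spread between these mice, estimated with information shared over genes.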

Additional observations from a re-analysis of the deposited data

How the results depend on the processing

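Of 110 values of the tested members under the alternatives, 109 kept their direction and passed the threshold, and of 497 values of the other named genes 452 kept their direction and side of it. The number of members called was 8 when any 1 mouse was left out, 8 under library size scaling, quantile normalization, DESeq2 and summed duplicate symbols, 9 with no filter, and 6 with a mean of 50 counts, which leaves out Casp1 and Il18 by construction. Without the 2 muscle-rich mice, chosen after seeing the data, 7 members and 3889 genes were called in place of 8 and 5979, with fewer mice. Leaving out each mouse gave 4842 to 5868 genes called. Inflammasome partners called fell from 17 to 10 under quantile normalization, to 9 with a mean of 50 counts, which tests 14 genes, and to 8 without the 2 muscle-rich mice; leaving out each mouse gave 12 to 17. NF-kB axis genes called went from 6 to 10 with library size alone and to 2 without the 2 muscle-rich mice, and leaving out each mouse gave 3 to 6. The cause was not tested. The fit with quantile normalization also used limma and a prior count of 2, and their parts cannot be told apart. Under this fit the log2 fold changes of Zbp1 (2.59), Ikbke (1.57), Oas1a (2.76), Oasl1 (2.25), Oas3 (1.52), Tlr13 (2.61), Ctsk (3.01), Il1rn (3.46), Naip2 (1.46), Mx1 (2.94) and Cxcl10 (1.59) were lower by over 1.5 times on the linear scale, with each call kept. Values that crossed 0 were those of Tbk1 (0.35 with library size alone, -0.21 to 0.013 when each mouse was left out), Nek7 (0.35 with library size alone, -0.19 to 0.022 when each mouse was left out), Myd88 (-0.0094 to 0.20 when each mouse was left out, below 0 without wild-type replicate 3 or Letmd1 KO replicate 2, where it was -0.0075), Pcbp2 (0.088 with library size alone, 0.029 under quantile normalization) and Irak1 (0.080 with library size alone). Relative to macrophage markers, Il18 ranged from -0.036 to 0.24 when each mouse was left out, and was below 0 without wild-type replicate 3 (-0.0066) or Letmd1 KO replicate 1. With the tested markers alone, which leaves out Mertk and was chosen after seeing the data, Il18 was at -0.17 and the median of the 8 members at -0.062 in place of 0.19.

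The replicate numbers are shared between the genotypes only as numbers: the correlation of deviations was 0.069, -0.11 and -0.087 for replicates 1, 2 and 3. With the replicate number as a block, 8 members and 5599 genes were called. Depth limits Tlr9, Nlrp3 and Il1b, which had too few counts for the test.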
